A study of Mus musculus with 4 samples.

Results

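The mitosis and cell division genes are a list of 35 genes whose products copy, condense, attach, pull apart and separate chromosomes. Members were found by gene name among the non-control probes of the arrays, and 1 probe stood for each gene: the brightest of those that the scanner software called clearly above background on 2 or more arrays. The arrays carried 37074 gene names in all, of which 22498 could be tested. Of the 35 members, 25 could be tested and 10 could not. The list names genes by function and sets no limit on a measured value. It was chosen with earlier results of these data known. Its counts and medians are therefore described beside those of all genes and are no independent evidence.

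RNA came from the abdominal aorta of male mice aged 12 weeks, collected 4 weeks after an operation in which calcium phosphate (CaPO4) was applied. Periaortic calcium phosphate is used in mice to provoke aneurysm. Both groups had the operation: the wild type group held arrays W2 and W3, and the SR-A1-/- group held arrays K4 and K5. SR-A1 is the class A scavenger receptor of macrophages, encoded by Msr1, and the comparison asks how the operated aorta differs without it. The labels name neither the strain nor the targeted allele, and they do not say whether the arrays of a group are separate animals, so each p-value measures only the spread between these samples. Aortas that had no operation were not analysed here.

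Each array was a one-colour Agilent expression array, and levels are log2 of the processed signal relative to the 75th percentile of the same array, so that 0 is the level that 1 in 4 of its probes exceed. A level below 0 is therefore dimmer than that mark and does not by itself show that a transcript was present or absent. All 4 arrays lay on 1 slide. The arrays fell into a dimmer pair, W2 and K5, with 75th percentiles of 132 and 133 intensity units, and a brighter pair, W3 and K4, with 220 and 245; each pair held 1 array of each group. Between 57.6% and 62.6% of probes were well above background. Msr1, the gene named as deleted, was not above background on W2 at -5.30, and it was above background on W3 at -2.10 and on both arrays labelled SR-A1-/- at -1.26 and -2.09. Whether the probe lies in the deleted stretch is not given in the sources used here. The Msr1 signal was thus higher, not lower, on both arrays labelled SR-A1-/-, though K5 and W3 were nearly equal. Its fitted difference was 2.03 (limma, adjusted p 0.965). Every direction given here rests on the labels. No gene passed an adjusted p of 0.05 by limma with Benjamini-Hochberg adjustment over the 22498 genes (lowest adjusted p 0.0538), while 1416 had an unadjusted p under 0.05.

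A dividing cell first raises the cyclins and the enzymes that make DNA building blocks, then condenses its chromosomes, attaches them through kinetochores to the spindle, and holds at a checkpoint until every chromosome is attached. The anaphase-promoting complex then destroys cyclins and securin, the chromosomes part, and a contractile ring cuts the cell apart. Most of these genes are transcribed mainly in G2 and mitosis, so that their RNA marks cycling cells, and in injured arteries such cells include smooth muscle cells, fibroblasts, endothelial cells and macrophages.

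Genes of this kind share promoter words. The CHR word (TTTGAA or TTTAAA), bound by DREAM and MuvB complexes, and the CCAAT word, bound by NF-Y, were searched on both strands in windows from 250 bases before to 50 bases after the start of each gene, taken from RefSeq on GRCm38.p6. CCAAT ends with the letter that begins the CHR word, so that matches of both can share a base. Windows were matched for 29 of the 35 members. The CHR word was in 24 of these 29 genes (82.8%) against 27.6% of all 32851 windows of the same length. The CCAAT word was in 20 (69%) against 37.4%, and both words were in 19 (65.5%) against 10.7%. At least 2 copies of CCAAT were in 13 (44.8%) against 11.7% of all windows. Melk, Nuf2, Nusap1 and Tyms held neither, as did 45.7% of all windows. These are matches of letters and not measured binding. The lines below show the stretch from 120 bases before to 20 bases after the start, 5′ to 3′ on the strand of the gene, for 5 members with both words and for Nusap1, which had neither; capitals mark either word on either strand.
Ccnb2, chr9:70421535-70421674, minus strand: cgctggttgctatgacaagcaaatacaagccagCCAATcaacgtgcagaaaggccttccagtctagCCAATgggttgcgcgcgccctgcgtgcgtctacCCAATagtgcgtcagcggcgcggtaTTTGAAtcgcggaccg
Cdc20, chr4:118437324-118437463, minus strand: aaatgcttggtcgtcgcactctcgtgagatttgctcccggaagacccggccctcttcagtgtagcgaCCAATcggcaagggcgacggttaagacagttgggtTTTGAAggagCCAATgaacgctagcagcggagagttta
Top2a, chr11:99024170-99024309, minus strand: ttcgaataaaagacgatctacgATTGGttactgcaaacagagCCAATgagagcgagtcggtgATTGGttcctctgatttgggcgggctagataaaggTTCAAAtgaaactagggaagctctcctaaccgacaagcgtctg
Ube2c, chr2:164769809-164769948, plus strand: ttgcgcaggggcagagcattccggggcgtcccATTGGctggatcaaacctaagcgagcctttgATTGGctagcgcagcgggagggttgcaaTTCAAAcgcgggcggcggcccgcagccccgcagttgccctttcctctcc
Rrm2, chr12:24708134-24708273, plus strand: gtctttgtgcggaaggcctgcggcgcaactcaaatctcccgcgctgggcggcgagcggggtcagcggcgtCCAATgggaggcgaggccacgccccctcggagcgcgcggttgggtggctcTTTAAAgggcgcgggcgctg
Nusap1, chr2:119618178-119618317, plus strand: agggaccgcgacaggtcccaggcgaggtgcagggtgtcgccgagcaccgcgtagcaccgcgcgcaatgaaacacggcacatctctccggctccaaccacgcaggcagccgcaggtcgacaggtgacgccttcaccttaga
Ccnb2 and Top2a each show 3 CCAAT copies ahead of 1 CHR word in this stretch, Cdc20 and Ube2c show 2 CCAAT copies beside 1 CHR word, and Rrm2 shows 1 of each. The Nusap1 stretch has no capitals. Whether these words go with the differences between the arrays was not tested.

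Most members read higher in the SR-A1-/- group on average, and no single member passed the test. None of the 25 passed an adjusted p of 0.05 by limma, as none of all genes did (0%), and 2, Nusap1 and Mki67, had an unadjusted p under 0.05, both higher, where 3.84% of all genes were higher and 2.45% lower at that p. On both SR-A1-/- arrays 11 of the 25 were above both wild type arrays, against 16.1% of all genes tested. Anln alone was below on both, against 13.7% of all genes. The remaining 13 overlapped between groups. The fitted difference, SR-A1-/- minus wild type, was above 0 for 23 members, against 11087 of the 22498 genes tested. Its median over the members was 0.63 on the log2 scale (range -0.44 to 2.16), beside -0.01 over all genes tested. In bulk tissue, fewer cells of a type and less RNA per cell cannot be told apart.

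The median difference changed with the setting. It was 0.13 after normexp background correction, 0.52 over the 17 members above background on every array, and 0.30 without W2. It was 0.52 with dim values replaced by the faintest signal called above background, and 0.76 without K5. Normexp here adds an offset of 50 intensity units, and after it the differences were 0.65 for Mki67, 0.44 for Cdca8, 0.34 for Ccna2, 0.29 for Top2a and 0.027 for Cenpf. The median level of the members was -3.38 on W2, -2.49 on W3, -2.15 on K4 and -2.30 on K5. Over the 17 members above background on every array these medians were -2.74, -1.82, -1.41 and -1.99 in the same order, so that K5 lay below W3. Taken gene by gene over the 25, the median difference was 0.90 for W3 minus W2 and -0.20 for K5 minus K4. W2 was the lowest array for 20 of the 25 members, against 21.7% of all genes, and K4 the highest for 18, against 23.4%. On W2 8 members were not well above background, against 7.24% of all genes.

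**Figure D1:**
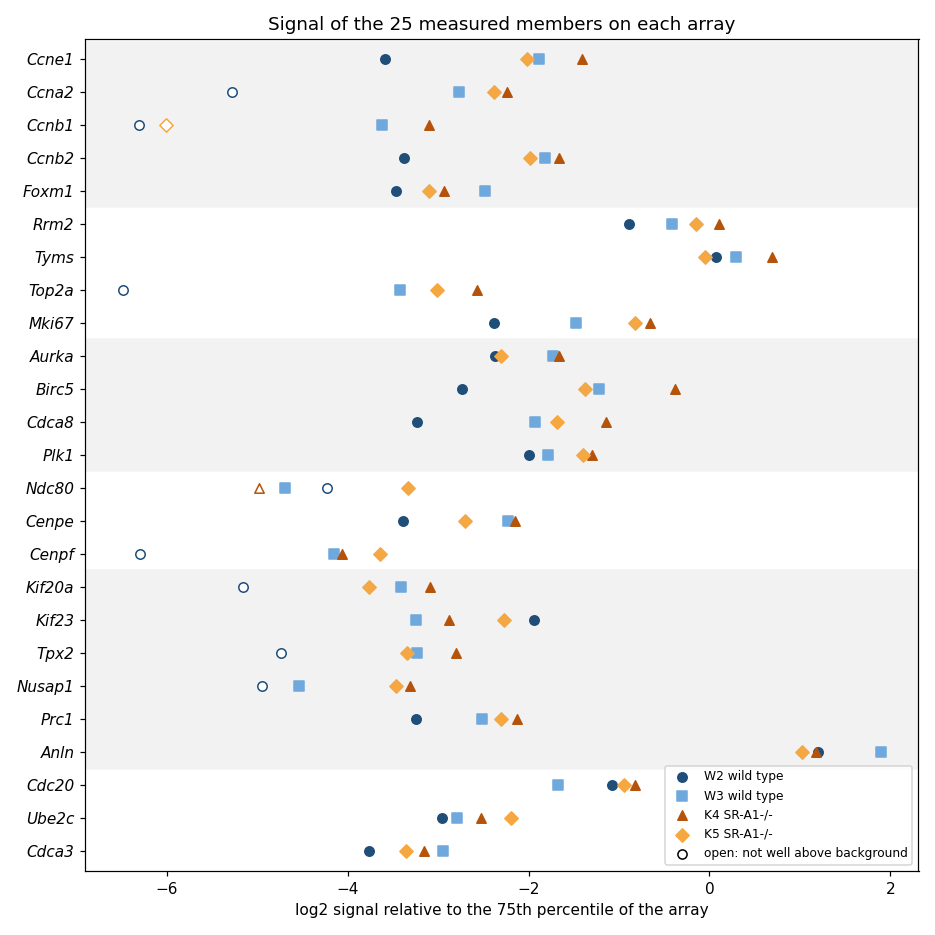
Level of each of the 25 tested members (log2 signal relative to the 75th percentile of its array, horizontal axis) on W2 and W3 (wild type, blue) and K4 and K5 (SR-A1-/-, orange), with open symbols where the probe was not well above background and shading by role. W2 is the leftmost symbol for 20 of the 25 members, and 8 of the W2 symbols are open.

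Differences were also taken within each pair of like brightness. Within the dimmer pair, K5 was above W2 for 22 of the 25 members, against 47.2% of all genes, with a median difference of 0.90. Within the brighter pair, K4 was above W3 for 21, against 50.7%, with a median difference of 0.40. Both held for 19 members, against 28.9% of all genes. The direction for most members was therefore the same in both pairs, and the size was smaller in the brighter pair. Anln was below 0 in both pairs, at -0.17 and -0.71. Tyms and Kif23 were above 0 only in the brighter pair, and Foxm1, Ndc80 and Cdca3 only in the dimmer one.

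**Figure D2:**
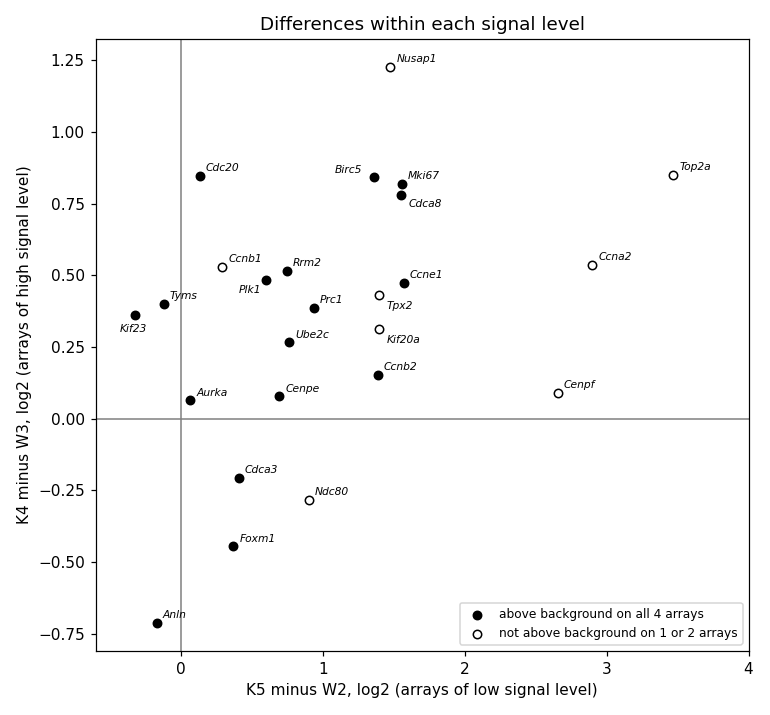
Log2 difference of each tested member between K5 and W2 (dimmer arrays, horizontal axis) and between K4 and W3 (brighter arrays, vertical axis), with open symbols where the probe was not well above background on at least 1 array. The part right of and above 0 holds 19 of the 25 members, and the members farthest to the right, Top2a, Ccna2 and Cenpf, are open symbols.

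Of the cyclins, kinases and their regulators, 5 of 8 were tested and 1, Ccna2, did not overlap between groups. Ccna2 encodes cyclin A2, which drives DNA synthesis and entry into mitosis; its level was -5.29 on W2, -2.77 on W3, -2.23 on K4 and -2.39 on K5. Both SR-A1-/- arrays were above both wild type arrays, but the W2 value was not above background, and the fitted difference was 1.72 ± 0.85 (log2 ± limma standard error, 2 arrays a group, adjusted p 0.92). Here and below, ± gives the limma standard error of a log2 difference. When each dim value was replaced by the faintest signal that its array still called above background, the difference was 1.21. A second Ccna2 probe read -6.44 on W2, -3.93 on W3, -3.71 on K4 and -4.17 on K5, so that its groups overlapped.

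The other 4 of this role overlapped between groups. Ccne1, the cyclin E1 that commits a cell to DNA synthesis, was at -3.59 on W2, -1.88 on W3, -1.41 on K4 and -2.02 on K5, a fitted difference of 1.02 ± 0.64. K5 lay just below W3 and the W2 value stood apart as the lowest; the difference was 0.17 without W2 and 1.88 without W3. Ccnb1 and Ccnb2 encode the B cyclins that activate Cdk1 at mitotic entry. Ccnb1 was at -6.30 on W2, -3.63 on W3, -3.10 on K4 and -6.01 on K5, a difference of 0.41 ± 1.29. Its values split by array brightness and not by genotype, with W2 and K5 both not above background. Ccnb2 was at -3.38 on W2, -1.82 on W3, -1.66 on K4 and -1.99 on K5, a difference of 0.77 ± 0.57, with W3, K4 and K5 close together above W2. Foxm1, a transcription factor that drives genes of G2 and mitosis, was at -3.47 on W2, -2.49 on W3, -2.93 on K4 and -3.10 on K5. Its difference was -0.04 ± 0.42, with both SR-A1-/- arrays between the wild type arrays. The kinase genes Cdk1 and Melk and the cyclin gene Ccne2 were above background on no array.

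All 4 genes of nucleotide supply and chromosome structure were tested, and 3 of them, Rrm2, Top2a and Mki67, were higher on both SR-A1-/- arrays. Mki67 encodes Ki-67, the protein that coats mitotic chromosomes and is used as a stain for cycling cells; its level was -2.38 on W2, -1.48 on W3, -0.66 on K4 and -0.82 on K5. All 4 arrays were above background, and the SR-A1-/- values lay closer to each other than the wild type values did. The fitted difference was 1.19 ± 0.40 (limma, adjusted p 0.702), or 2.28-fold, with an unadjusted limma p of 0.0311. Without W2 the difference was 0.74. Top2a, the topoisomerase that untangles sister chromatids, was at -6.49 on W2, -3.42 on W3, -2.57 on K4 and -3.02 on K5. It had the largest fitted difference of the members, 2.16 ± 1.02 (limma, adjusted p 0.899), with W2 far below the other arrays and not above background. With dim values replaced in the same way, the difference was 1.05, and between K4 and W3 alone it was 0.85.

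Rrm2, the small subunit of ribonucleotide reductase, which makes deoxynucleotides, was at -0.89 on W2, -0.41 on W3, 0.10 on K4 and -0.15 on K5. Both SR-A1-/- arrays were above both wild type arrays by a margin smaller than the gap between W2 and W3, and the fitted difference was 0.63 ± 0.32 (limma, adjusted p 0.939). Tyms, the thymidylate synthase, was at 0.08 on W2, 0.29 on W3, 0.70 on K4 and -0.04 on K5, a difference of 0.14 ± 0.37. Its K4 value was the highest and its K5 value the lowest. Of the other Tyms probes, 1 read -0.35, -1.28, -0.64 and -0.25 in the same order of arrays and 1 read -0.72, -0.66, -0.06 and -0.66; both overlapped between groups.

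Of the chromosomal passenger complex and the mitotic kinases, 4 of 5 were tested and Cdca8 and Plk1 did not overlap between groups. Cdca8 is borealin, which holds the passenger complex on centromeres; its level was -3.24 on W2, -1.92 on W3, -1.14 on K4 and -1.69 on K5. The fitted difference was 1.16 ± 0.53 (limma, adjusted p 0.875), and W2 was again the lowest by a wide margin; without W2 the difference was 0.51. Plk1, the polo-like kinase that acts at centrosomes, kinetochores and the cleavage furrow, was at -1.99 on W2, -1.79 on W3, -1.30 on K4 and -1.39 on K5. Its 4 values lay closer together than those of Cdca8, and both groups kept apart with a difference of 0.54 ± 0.28 (limma, adjusted p 0.94).

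Birc5, or survivin, a partner of borealin in the same complex, was at -2.74 on W2, -1.22 on W3, -0.38 on K4 and -1.38 on K5, a difference of 1.10 ± 0.64. K5 lay just below W3, so the groups overlapped, and the second Birc5 probe, above background on 2 arrays, read -6.26, -3.74, -3.95 and -5.02 in the same order of arrays. Without W2 the Birc5 difference was 0.35. Aurka, the kinase of centrosomes and spindle poles, was at -2.37 on W2, -1.73 on W3, -1.66 on K4 and -2.30 on K5. Its difference was 0.07 ± 0.39, and its values paired by array brightness, W2 with K5 and W3 with K4. Aurkb, the kinase of the passenger complex, was above background on no array with either probe.

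The kinetochore and spindle checkpoint genes were often not above background, and 3 of 7 were tested. Cenpf, a large protein of the outer kinetochore and nuclear envelope, was at -6.30 on W2, -4.16 on W3, -4.06 on K4 and -3.65 on K5. It was higher on both SR-A1-/- arrays with a fitted difference of 1.37 ± 0.75 (limma, adjusted p 0.969), but W2 was not above background, and K4 and W3 differed by 0.09. With dim values replaced the difference was 0.35. Cenpe, the kinesin that carries chromosomes to the spindle equator, was at -3.39 on W2, -2.23 on W3, -2.15 on K4 and -2.70 on K5. The groups overlapped, W2 was the lowest array, and the difference was 0.39 ± 0.49. Ndc80, the microtubule-binding subunit of the complex that bears its name, was at -4.23 on W2, -4.69 on W3, -4.98 on K4 and -3.33 on K5. Only W3 and K5 were above background, and the difference was 0.31 ± 0.61.

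Nuf2, the partner of Ndc80, was the 1 untested member with any signal above background: its brighter probe read -6.08 on W2, -5.01 on W3, -3.59 on K4 and -4.62 on K5, and K4 alone was above background. No fold is given, since K5 and both wild type arrays were not above background. The checkpoint genes Bub1, Bub1b and Ttk, which hold anaphase until all kinetochores are attached, were above background on no array.

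Of the spindle motors and microtubule proteins, 6 of 8 were tested; Nusap1 and Prc1 were higher on both SR-A1-/- arrays and Anln was lower on both. Nusap1 bundles and stabilises spindle microtubules, and its level was -4.94 on W2, -4.54 on W3, -3.31 on K4 and -3.47 on K5. The wild type arrays were close to each other, the SR-A1-/- arrays were close to each other, and the gap between groups was wider than either spread. The fitted difference was 1.35 ± 0.31 (limma, adjusted p 0.462), or 2.55-fold, with an unadjusted limma p of 0.00701, the smallest of the members. W2 was not above background, and with dim values replaced the difference was 1.01. After normexp background correction it was 0.11.

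Prc1, which crosslinks antiparallel microtubules in the spindle midzone, was at -3.24 on W2, -2.52 on W3, -2.13 on K4 and -2.31 on K5, a fitted difference of 0.66 ± 0.36 (limma, adjusted p 0.969). The groups did not overlap, but W2 and W3 differed by more than W3 and K5. Tpx2, which activates Aurora A and seeds spindle microtubules, was at -4.74 on W2, -3.23 on W3, -2.80 on K4 and -3.34 on K5, and Kif20a, a kinesin of the midzone and cleavage furrow, was at -5.16 on W2, -3.41 on W3, -3.09 on K4 and -3.77 on K5. Both had W2 alone not above background and K5 below W3, with differences of 0.91 ± 0.58 for Tpx2 and 0.86 ± 0.66 for Kif20a. Without W2 these were 0.16 and -0.022, and that of Prc1 was 0.30. Kif11, the kinesin that pushes spindle poles apart, and Kif2c, a kinesin that shortens microtubules, were above background on no array.

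Anln encodes anillin, the scaffold that ties actin, myosin and septins into the contractile ring; its level was 1.20 on W2, 1.89 on W3, 1.18 on K4 and 1.03 on K5. It was above background on every array and was the only member lower on both SR-A1-/- arrays: W2 lay just above K4, W3 was the highest, and the fitted difference was -0.44 ± 0.35 (limma, adjusted p over 0.99). The margin between W2 and K4 was smaller than the spread of either group, and the difference was -0.092 without W3.

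Kif23, the kinesin of the centralspindlin complex, was read by a pair of probes that did not give the same picture. The brighter probe starts at base 2861 of transcript AK076271 and lies at chr9:61770729-61770788 on mm9, as the array's own annotation gives it; the other starts at base 1458 of NM_024245, at chr9:61774902-61774961. The first 30 of the 60 bases of each are shown because the choice of probe decides the result; no letters are in capitals.
Kif23, AK076271 probe: gctctgcctcatgcaagggtgcttaaatga
Kif23, NM_024245 probe: agatttgctgaagtaacccaagaagtggaa
The AK076271 probe read -1.95 on W2, -3.24 on W3, -2.88 on K4 and -2.27 on K5, a difference of 0.02 ± 0.53, with W2 the highest array. The NM_024245 probe read -5.89 on W2, -5.49 on W3, -4.15 on K4 and -4.07 on K5, and was above background on both SR-A1-/- arrays and on neither wild type array. The wild type arrays were then taken at the higher of the probe's own signal and the faintest signal that the array called above background. On that footing the SR-A1-/- mean of this second probe was 1.43-fold the wild type mean, which is not a strict bound. This probe passed the filter only through the SR-A1-/- arrays, so its direction follows from that selection and is no separate evidence of a difference. The brighter probe stands for the gene by the rule, and W2 was its highest array, unlike any other member.

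The genes of mitotic exit were all tested, 3 of 3, and Cdc20 and Ube2c were higher on both SR-A1-/- arrays. Cdc20 activates the anaphase-promoting complex, and its level was -1.07 on W2, -1.67 on W3, -0.82 on K4 and -0.94 on K5. W3, not W2, was the lowest array, the groups lay close together, and the difference was 0.49 ± 0.33. A second Cdc20 probe, at -1.16, -2.58, -1.90 and -1.01 in the same order, overlapped between groups. Ube2c, the ubiquitin-conjugating enzyme of the same complex, was at -2.96 on W2, -2.79 on W3, -2.53 on K4 and -2.20 on K5, with a difference of 0.52 ± 0.30 (limma, adjusted p 0.998). Both wild type arrays were close to each other and below both SR-A1-/- arrays. Cdca3, which helps degrade the Wee1 kinase at mitotic entry, was at -3.77 on W2, -2.95 on W3, -3.15 on K4 and -3.36 on K5, a difference of 0.10 ± 0.38, with both SR-A1-/- arrays between the wild type arrays.

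**Figure D3:**
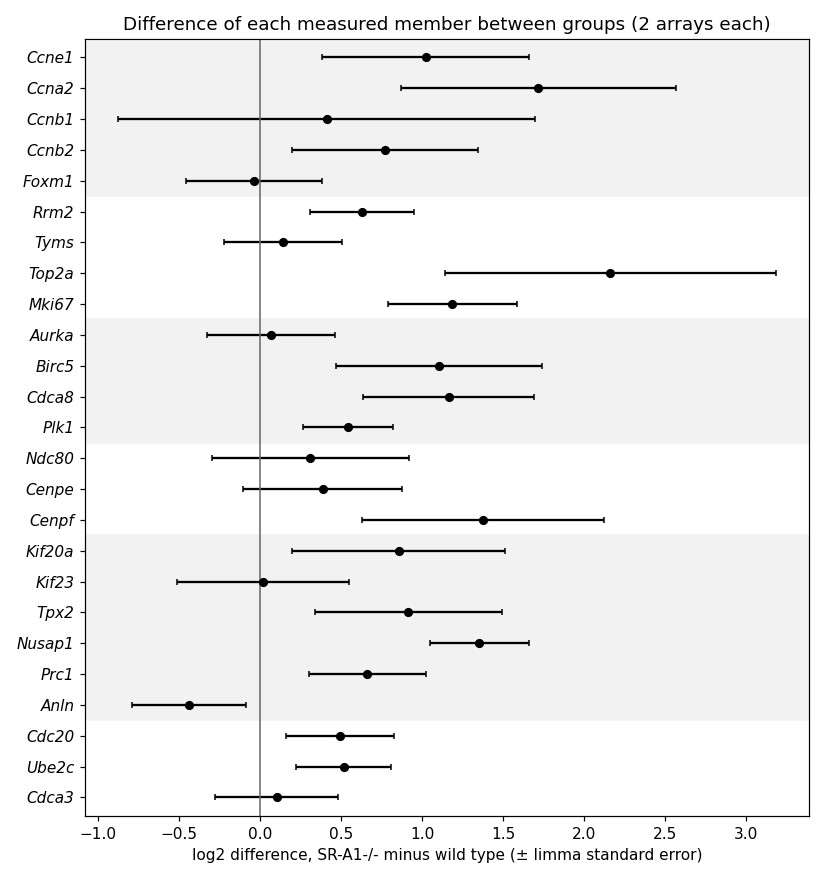
Fitted log2 difference of each tested member, SR-A1-/- minus wild type (horizontal axis), with its limma standard error as the bar, 2 arrays a group, shading by role. Points lie right of 0 for 23 of the 25 members, from -0.44 for Anln to 2.16 for Top2a, and the widest bars belong to Ccnb1 and Top2a.

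The probes of the members with the smallest p-values were checked for their place in the transcript. The Mki67 probe starts at base 9895 of NM_001081117 and lies at chr7:142881591-142881650 on mm9, and the Nusap1 probe starts at base 2135 of NM_133851, at chr2:119475072-119475131 on the same build. The first 30 bases of both are shown since these probes carry the smallest p-values; no letters are in capitals.
Mki67: atactactgctactgcctgagtttaaggaa
Nusap1: agggaggctggaagaccacatttttgttca
Each of these genes has a single value here, and a second probe above background on 2 or more arrays existed for 5 members only: Birc5, Ccna2, Cdc20, Kif23 and Tyms.

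Other genes of the cell cycle, in 7 lists that share no member with the 35, had smaller median differences in the main analysis. Over these lists 135 genes were tested, 37 were higher and 13 lower on both SR-A1-/- arrays, and the median difference was 0.12. Over all genes tested 16.1% were higher and 13.7% lower. No gene of these lists passed the test. The kinetochore and centromere genes outside the members came closest, with 8 of 19 higher, 1 lower and a median of 0.36. Of the 32 other DNA replication genes 14 were higher and 2 lower, with a median of 0.32. In both of these lists the share of genes higher was close to that of the members, 11 of 25. Of the other spindle and cytokinesis genes 4 of 17 were higher and 1 lower (median 0.22). The G1, S and E2F regulators had 5 of 22 higher and 2 lower (median 0.09), the condensin and cohesin genes 2 of 17 and 1 (median 0.04), and the other genes of mitotic entry and exit 3 of 21 and 4 (median -0.05). Of the 7 CDK inhibitors 1 was higher and 2 lower, with a median of 0.05. The gap to the members changed with the setting. Without W2 the median difference was 0.305 for the other DNA replication genes and 0.301 for the members. After normexp these were 0.107 and 0.130. The remaining lists stayed below the members in both settings. Within the brighter pair, K4 minus W3, the median was 0.47 for the other DNA replication genes and 0.40 for the members. Within the dimmer pair, K5 minus W2, these medians were 0.21 and 0.90. Levels also differed: the median on W2 was -3.38 for the members and ran from -3.87 to 1.58 over the lists. The part of level in these gaps was not tested.

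Single genes of these lists spanned a wider range than the medians. Mcm6, a subunit of the replicative helicase, was at 3.30 on W2, 3.40 on W3, 0.86 on K4 and 0.53 on K5, a difference of -2.65 ± 0.29 (limma, adjusted p 0.16). Its wild type arrays lay close to each other, far above both SR-A1-/- arrays, while Mcm5 of the same ring differed by 0.86 in the other direction. Wee1, the kinase that holds Cdk1 inactive, was at -1.43 on W2, -1.52 on W3, -0.10 on K4 and 0.46 on K5, a difference of 1.65 ± 0.33 (limma, adjusted p 0.368). Cdkn1a, the p21 inhibitor of cyclin-dependent kinases, was at 2.13 on W2, 2.81 on W3, 0.77 on K4 and 1.61 on K5, a difference of -1.28 ± 0.44 (limma, adjusted p 0.716). Both SR-A1-/- arrays were below both wild type arrays for Cdkn1a, and also for Cdkn2b, which differed by -0.96.

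Of the remaining genes with the smallest p-values in each list, higher levels were read for E2f8 by 1.23, Ccnd1 by 0.75, Pole by 0.84, Espl1 by 0.84, Ncapg2 by 1.15, Casc5 by 1.14, Ska2 by 0.99, Cit by 0.71 and Racgap1 by 0.58 on the log2 scale, each with both groups apart. E2f8, Casc5 and Ska2 were not above background on W2, and with dim values replaced their differences were 0.74, 0.73 and 0.99. E2f8 is a repressor of the E2F family, Ccnd1 is cyclin D1, Pole is the leading-strand polymerase, and Espl1 is separase, which cuts cohesin. Ncapg and Cdkn2c, at 1.13 and 0.25, overlapped between groups (Ncapg was not above background on W2, and its difference was 0.48 with the dim value replaced), while Cdkn1c, at 0.82, did not. Lower levels with the groups apart were read for E2f3, E2f2, Smc4, Anapc7 and Cdc26, with differences of -0.70, -0.37, -0.66, -0.57 and -0.45. The groups were barely apart for E2f2, with W2 at -0.857 and K5 at -0.859, and for Cdc26, with W2 at 0.96 and K4 at 0.91. The margin was also small for Cdkn1c, with W3 at 4.08 and K5 at 4.13. Gmnn, Kif14, Depdc1b, Wapal and Zwint overlapped, at -1.59, -1.06, -0.25, -0.23 and -0.06. With dim values replaced, the differences were -0.58 for E2f3 and -0.24 for Kif14, both not above background on K5, and -0.40 for Depdc1b, not above background on W2 and K4.

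**Figure D4:**
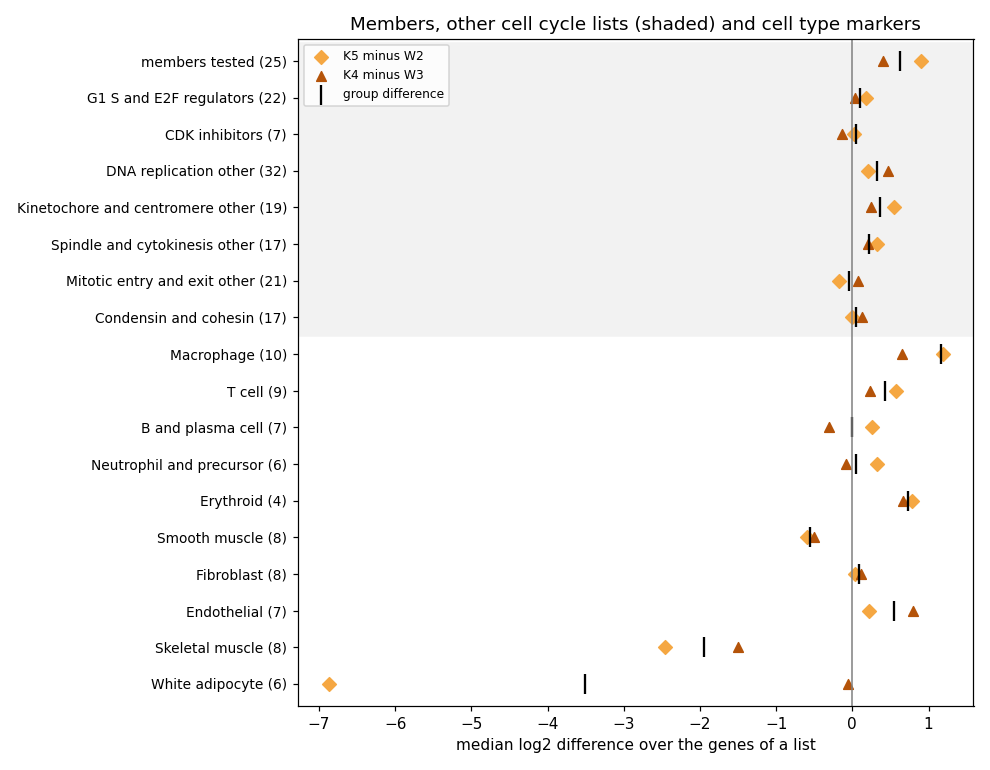
Median log2 difference over the tested genes of each list (number in brackets) between groups (bar), between K5 and W2 (diamond) and between K4 and W3 (triangle), for the members, the 7 other cell cycle lists (shaded) and 10 lists of cell type markers. The members' bar stands at 0.63 beside -0.05 to 0.36 for the other cell cycle lists, 1.16 for macrophage markers and -1.95 for skeletal muscle markers.

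Markers of the cell types that the aorta and its surroundings can hold were set beside the members, and no marker passed the test. Of 10 macrophage markers 5 were higher and 1 lower on both SR-A1-/- arrays, with a median difference of 1.16; their summed level, in units of each array's 75th percentile, was 167 and 342 on the wild type arrays and 273 and 275 on the SR-A1-/- arrays, which overlap. Of 9 T cell markers tested 5 were higher (median 0.42), with summed levels of 16.4 and 7.15 against 7.97 and 17.3, which also overlap. Such sums weigh bright genes most, and Cd247, the brightest T cell marker, read 3.60 and 1.99 against 1.97 and 3.61. Cd8a was above background on fewer than 2 arrays. Of 8 smooth muscle markers 5 were lower and none higher (median -0.56), with summed levels of 1887 and 1373 against 1078 and 1306. All 8 were above background on every array. Of 7 endothelial markers 4 were higher and 1 lower (median 0.55), with summed levels of 44.2 and 23.1 against 54.2 and 52.0. Medians lay near 0 for fibroblast markers (1 of 8 higher, median 0.09), B and plasma cell markers (1 of 7 higher and 2 lower, median -0.0048) and neutrophil markers (0 of 6 apart, median 0.05). Single genes of these lists lay farther out in both directions. Jchain differed by 2.22 and Ms4a1 by -0.90, both with the groups apart, and S100a9 by -1.31 with the groups overlapping. Of 4 erythroid markers 1 was higher (median 0.72).

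Markers of tissues outside the vessel wall also differed between arrays. The 8 skeletal muscle markers had a median difference of -1.95, with 1 higher and 5 lower, and summed levels of 1128 and 337 on W2 and W3 against 131 and 230 on K4 and K5. The 6 white adipocyte markers summed to 383 and 648 on the wild type arrays and to 592 and 28.7 on the SR-A1-/- arrays, with K5 far below the rest. Within the wall, W2 was the highest array for all 8 smooth muscle markers, against 5648 of the 22498 genes tested. W2, the array on which the members were dimmest, also had the highest skeletal muscle sum and the lowest macrophage sum of the 4 arrays. The brightest macrophage markers weigh most in that sum and differed: on W2 Lyz2 was at its lowest, 5.25, and Itgam at its highest, 6.68. Of the 10 macrophage markers, W2 was the lowest array for 7, against 21.7% of all genes, and the highest for 1. The part of these markers, and of array brightness, in the members' differences was not tested. Without W2, the median difference of the members was 0.30 and 12 of them were higher on both SR-A1-/- arrays, beside 36.2% of all genes, and 3 were lower on both, beside 34.1%. Without W3 the median was 1.02 and 21 were higher, beside 30.8% of all genes. Without W3, where W2 alone stood for wild type and was assumed to vary like the other group, 371 genes passed the limma test, among them 3 members, Ccna2, Top2a and Cenpf, none of them above background on W2.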

How the data were processed

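The deposited files hold scanner output of 4 one-colour Agilent arrays, with spot intensity and flag columns made by Agilent Feature Extraction (12.0.3.1 per the file headers, 10.7 per the submitters' processing notes, which also name limma), plus a table of the authors' log2 values. Each array holds 62976 spots, 59305 of them non-control. Outlier spots (74 to 102 an array) were left out, repeat spots averaged, and log2 processed signal was centred on the array's 75th percentile. The number of arrays limits the precision. Probes well above background on at least 2 arrays were kept, and the brightest stood for its gene name. limma 3.58.1 in R 4.3.3 (lmFit, eBayes, two-sided, Benjamini-Hochberg over 22498 genes) compared SR-A1-/- with wild type, with no covariate. The fit was also run on simulated data with known changes. That check set no minimum for the share of small changes recovered. The members and lists were chosen with earlier results of these data known. Named genes were all members, their other probes above background on at least 2 arrays, Msr1, and up to 2 genes a direction with the smallest p in each other list. One gene that this rule names is not reported here. Alternatives were quantile, cyclic loess and normexp (offset 50) processing, dropping the filter or requiring signal above background on every array, outliers kept, mean of probes, an intensity trend, array brightness as a block, the deposited log2 values, leaving out each array, and, chosen after seeing the data, replacing each dim value by the faintest signal called above background on its array. Promoter and probe sequences are from RefSeq and the array files.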

Additional observations from a re-analysis of the deposited data

How the results depend on the processing

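The count of genes passing the test, 0 in the main analysis, was 8 under quantile normalization, cyclic loess, no filter on dim probes or the deposited values, 21 under normexp, 5 with an intensity trend, and 0 to 371 over the analyses that left out 1 array. None of these calls was a member except 3 without W3; leaving out 1 array gave 0 to 3 member calls. Over the 3 arrays then left, 12 to 21 members had every SR-A1-/- value above every wild type value (30.8% to 36.2% of all genes), and 2 to 3 had every one below (28.8% to 34.1%). Members higher numbered 7, of 17 tested, with a filter on all arrays. Normexp gave 0 members lower and a median of 0.13. Kif23 changed sign under quantile normalization (-0.037), cyclic loess (-0.046), normexp (-0.062) and the deposited values (-0.039), and under normexp so did Ccnb1 (-0.0052), Ndc80 (-0.041) and Cdca3 (-0.048). Leaving out 1 array turned the sign for 10 members, over ranges of -1.05 to 1.87 for Ccnb1, -0.0090 to 1.55 for Ccnb2, -0.53 to 0.45 for Foxm1, -0.23 to 0.51 for Tyms, -0.25 to 0.39 for Aurka, -0.51 to 1.13 for Ndc80, -0.19 to 0.97 for Cenpe, -0.022 to 1.73 for Kif20a, -0.63 to 0.67 for Kif23 and -0.31 to 0.51 for Cdca3. The cause of these changes was not tested. The members that kept their sign ranged from 0.17 to 1.88 for Ccne1, 0.46 to 2.98 for Ccna2, 0.39 to 0.87 for Rrm2, 0.63 to 3.69 for Top2a, 0.74 to 1.64 for Mki67, 0.35 to 1.86 for Birc5, 0.51 to 1.82 for Cdca8, 0.44 to 0.65 for Plk1, 0.30 to 2.45 for Cenpf, 0.16 to 1.67 for Tpx2, 1.15 to 1.56 for Nusap1, 0.30 to 1.02 for Prc1, -0.79 to -0.092 for Anln, 0.19 to 0.79 for Cdc20 and 0.35 to 0.68 for Ube2c. No paired analysis was possible because the numbers in the labels differ between groups; array brightness as a block, a split seen in the data and not a pairing of samples, gave 0 calls, with a lowest limma adjusted p among the members of 0.254 for Nusap1. Probes near background, 8 members on W2, limit the sizes given.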
